A study of Homo sapiens with 6 samples.

Results

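The p53 target genes described here are a list of 34 genes that the tumour suppressor p53 is known to switch on, grouped by function. The list was drawn up with earlier results of these data known. A listed gene was kept where its normalised read count was at least 20 in at least 2 libraries, which held for 33 of the 34, against 14716 of all 62700 genes in the table. SPATA18, the gene left out, had 2 reads and 1 read in the WT libraries and none in the other 4, and FAS, the kept gene nearest the limit, reached 20 in 4 libraries and stood at 11.6 and 15.0 in the RBMXL3 libraries. The cells were TCam-2, an established line from a human testicular germ cell tumour of the seminoma type, profiled by sequencing of polyadenylated RNA in duplicate. There were 3 groups of 2 libraries each. One group was transduced with RBMXL3_FLAG, a tagged copy of RBMXL3, which encodes an RNA-binding protein related to RBMX. One was transduced with GFP_FLAG, a tagged fluorescent protein that serves as the transduction control, and one was not transduced (WT). The labels used here give neither the vector and its promoter nor the time after transduction, and nothing says that the 2 libraries of a group came from separate cultures, so the p-values measure only the spread between these libraries.

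p53 is a transcription factor that is kept scarce by MDM2, a ubiquitin ligase whose own gene p53 activates, so that the pathway contains a negative feedback loop. When DNA damage, ribosomal stress or oncogene activity stabilises the protein, it binds response elements near its targets, and these slow the cell cycle, promote apoptosis, repair DNA or adjust metabolism. Its activity is set mostly at the protein level. Germ cell tumours are known for rarely losing p53 and for responding to DNA-damaging drugs by apoptosis.

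The RBMXL3 gene had 84 and 68 reads in the RBMXL3 libraries and 0 in each of the 4 control libraries, where 0 allows up to 3 reads. Each library held between 17685680 and 29318007 reads assigned to genes, and such limits cover counting error only. All 10 seminoma markers passed the limit that the p53 targets had to pass, with a summed normalised count between 117781 and 135222, and all 3 embryonal carcinoma markers did too. None of the 5 leukocyte markers passed it, and CD3E and MS4A1 had no read in any library. Of 5 fibroblast markers 4 passed, with a summed count of 8495 and 9700 in the WT libraries, 13432 and 11969 in the GFP libraries and 12660 and 13485 in the RBMXL3 libraries. That sum was higher in every transduced library, as were many p53 targets below, and its part in those differences was not tested. GFP replicate 1 had 1.31% of its reads on mitochondrial genes, against 2.02% to 3.02% in the other 5 libraries. In bulk RNA, fewer cells of a type and less RNA per cell cannot be told apart, and, with no preparation batch in the labels a preparation difference and the group cannot be told apart either.

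RefSeq windows of 300 bases, 250 before to 50 after a transcription start (GRCh38.p14), matched 26 of the 33 genes by symbol, and were searched for the p53 response element. The pattern is a pair of half-sites of 10 bases, each with C at position 4 and G at position 7, with a spacer of 0 to 13 bases and at most 2 mismatches in all, and it is its own reverse complement, so 1 search covers both strands. A match was present for 5 of the 26 p53 targets (19.2%) and for 989 of 27305 genes with a window (3.62%). The 5 were FAS, DDB2, MDM2, AEN and FDXR. A match is a description of the letters and not a measured binding site, and many p53 elements lie outside such windows. The 4 windows below are shown because they belong to the death receptor that was lower with RBMXL3, the feedback gene that was called in no comparison, and a repair and a metabolic gene that were higher after either transduction. They lie at chr10:88991181-88991480 on the plus strand (FAS), chr11:47214724-47215023 on the plus strand (DDB2), chr12:68808767-68809066 on the plus strand (MDM2) and chr17:74872945-74873244 on the minus strand (FDXR), and capitals mark the half-sites, with the spacer in lower case.
FAS: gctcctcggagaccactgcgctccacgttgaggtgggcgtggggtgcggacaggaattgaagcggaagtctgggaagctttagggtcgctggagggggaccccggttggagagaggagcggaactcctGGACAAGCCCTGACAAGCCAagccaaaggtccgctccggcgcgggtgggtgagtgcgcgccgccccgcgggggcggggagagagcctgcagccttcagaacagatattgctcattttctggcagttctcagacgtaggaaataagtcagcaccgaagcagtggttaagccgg
DDB2: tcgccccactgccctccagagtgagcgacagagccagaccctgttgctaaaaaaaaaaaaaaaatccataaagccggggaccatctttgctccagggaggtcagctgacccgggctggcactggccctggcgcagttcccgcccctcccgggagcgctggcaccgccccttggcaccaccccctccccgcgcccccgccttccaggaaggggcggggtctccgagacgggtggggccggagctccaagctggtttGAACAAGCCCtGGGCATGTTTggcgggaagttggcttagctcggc
MDM2: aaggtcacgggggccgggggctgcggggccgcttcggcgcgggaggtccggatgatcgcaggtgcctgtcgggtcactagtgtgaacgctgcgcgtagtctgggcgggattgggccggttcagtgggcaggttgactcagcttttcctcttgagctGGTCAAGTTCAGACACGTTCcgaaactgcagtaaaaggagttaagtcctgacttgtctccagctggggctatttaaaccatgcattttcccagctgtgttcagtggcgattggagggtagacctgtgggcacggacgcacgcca
FDXR: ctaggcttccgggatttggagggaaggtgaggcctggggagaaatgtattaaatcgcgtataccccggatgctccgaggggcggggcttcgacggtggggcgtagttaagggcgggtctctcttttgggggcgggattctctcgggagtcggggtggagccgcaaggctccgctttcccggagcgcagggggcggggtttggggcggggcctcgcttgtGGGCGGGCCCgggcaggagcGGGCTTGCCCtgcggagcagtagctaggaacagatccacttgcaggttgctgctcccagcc
The DDB2 element has 0 mismatches and a spacer of 1 base and lies from base 5 to base 25 after the start. The other 3 have 2 mismatches each. The MDM2 element spans positions -94 to -75 relative to a start inside the gene, which belongs to the second, p53-responsive promoter, and the FAS element spans positions -122 to -103.

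RBMXL3 libraries carried more mRNA of several p53 targets, among them the proapoptotic genes BBC3 and PMAIP1, while the classical targets CDKN1A, DDB2 and FDXR were already higher in GFP cells. Changes are on the scale log2(value + 1), where the value is the normalised count divided by 23.9, which brings the libraries to a CPM-like scale. Changes of low genes are understated on it, and a fold given with a change is taken from it. A gene is called where its change had an adjusted p under 0.05 in limma with Benjamini-Hochberg adjustment over the 14292 genes tested. Against GFP, 7 of the 33 p53 targets were called higher and 3 lower, which is 30.3% beside 20.9% of all genes tested (10.5% higher and 10.4% lower). Against WT, 12 were called higher and 1 lower, 39.4% beside 29.9% of all genes (14.6% higher and 15.3% lower). GFP against WT gave 5 calls, all higher, 15.2% beside 3.67% of all genes (1.76% higher and 1.91% lower). The median log2 change of the 33 was 0.09 against GFP, 0.22 against WT and 0.22 for GFP against WT, beside 0.001, -0.014 and -0.008 for all genes. Neither share called with RBMXL3, against GFP or against WT, was far above that of all genes. The direction was mixed against GFP, whereas nearly all calls against WT and between the controls were upward. BBC3, PMAIP1, PHLDA3, TNFRSF10C and GDF15 were called higher against both controls, 5 of 33 beside 6.88% of all genes called higher against both and 6.86% called lower against both. Without RBMXL3 replicate 1 or 2 that count of 5 was 2, and without GFP replicate 2 it was 9. Both comparisons share the RBMXL3 libraries, and RBMXL3 against WT shares the WT libraries with GFP against WT. In all, 18 of the 33 were called in at least 1 comparison and 15 in none. The share of all genes called in at least 1 comparison was not computed, and it cannot lie under the 29.9% called against WT.

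Without testing, the order of the libraries can be read directly from the normalised read counts. In 14 of the 33 both RBMXL3 libraries lay above all 4 control libraries, 42.4% beside 22.5% of all genes, and in 4, PLK2, CYFIP2, FAS and SESN1, both lay below all 4, 12.1% beside 23.6%. Both GFP libraries lay above both WT libraries in 20 of the 33, 60.6% beside 24.4% of all genes. A stepwise order, every WT library below every GFP library and every GFP library below every RBMXL3 library, was met by 9 of the 33, 27.3% beside 7.16% of all genes. These were CDKN1A, BAX, BBC3, PHLDA3, TNFRSF10B, TNFRSF10C, DDB2, FDXR and GDF15. Orders can differ in summed TPM, where both PLK2 values with RBMXL3, 12.4 and 9.66, lay above both GFP values, 9.33 and 8.77. The calls against GFP rest on both RBMXL3 libraries: without RBMXL3 replicate 1 only BBC3 and PMAIP1 were called, beside 5.88% of all genes, without RBMXL3 replicate 2 only BBC3, PMAIP1 and RRM2B, beside 4.6%, and without GFP replicate 2 there were 12 calls, beside 30.2%. The count for GFP against WT was 0 without WT replicate 1, where 0 of all 14292 genes were called, and 0 without WT replicate 2, where 20 were. It was 3 without RBMXL3 replicate 1 or 2, beside 1.07% and 1.01% of all genes, 8 without GFP replicate 1, beside 8.02%, and 11 without GFP replicate 2, beside 19.5%, so the counts moved with those of all genes. With no filter on low values, over 30989 genes, BBC3 alone was called against GFP, beside 3.07% of all genes. In that setting 10 were called against WT, beside 7.51%, and between the controls no gene of any kind was called. On TPM summed per gene, 5 p53 targets were called higher and 1 lower against GFP, beside 6.93% of all genes. On it 15 were called against WT, beside 11.5%, and between the controls again no gene of any kind was called. That scale also moved the median of all genes against GFP to 0.13 and their calls to 779 higher and 209 lower, from 1503 and 1483.

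**Figure D1:**
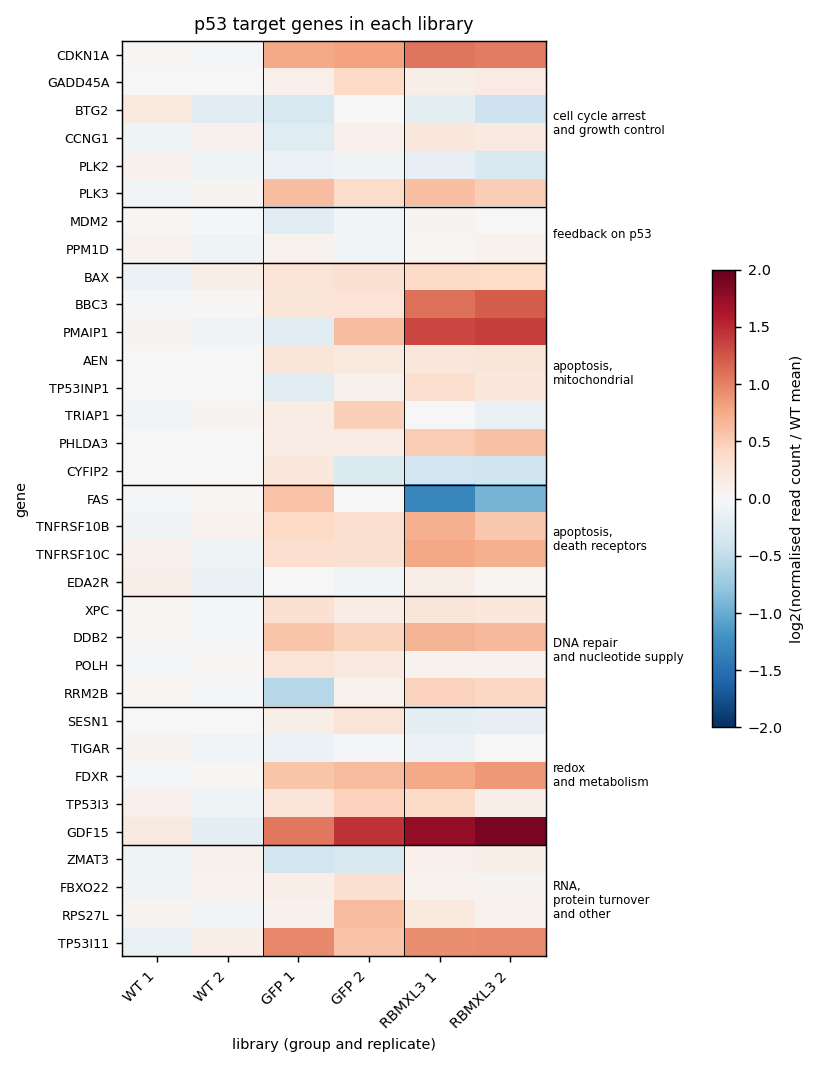
Heat map of the 33 p53 targets by library, as log2 of the ratio of its normalised read count to the mean of the 2 WT libraries, with no pseudocount, with the genes in role groups and 1 column per library. BBC3, PMAIP1 and GDF15 are highest in the RBMXL3 columns, while CDKN1A, DDB2 and FDXR are raised in the GFP columns too.

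**Figure D2:**
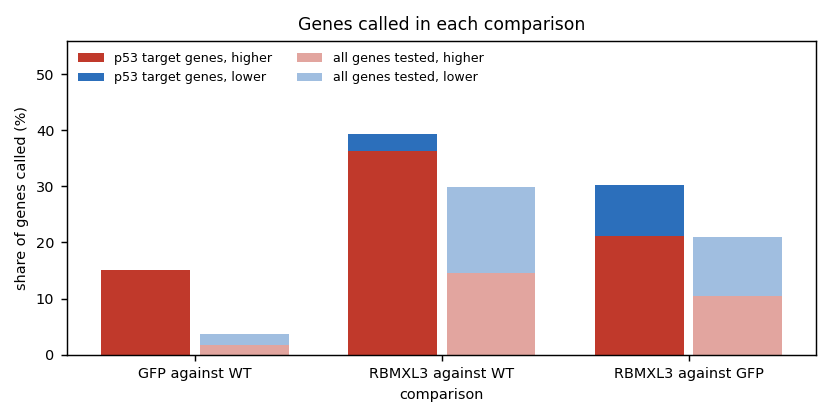
Percent of genes called higher and lower in each comparison, for the 33 p53 targets and for all genes tested. The p53 targets exceed all genes among upward calls in RBMXL3 against WT (12 of 33 beside 14.6%) and in GFP against WT (5 of 33 beside 1.76%). They also do so in RBMXL3 against GFP (7 of 33 beside 10.5%), where 3 of 33 were called lower beside 10.4%.

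Among genes of cell cycle arrest and growth control, CDKN1A and PLK3 were higher with RBMXL3 than in WT, and none of the 6 was called against GFP by limma, edgeR or DESeq2, although CDKN1A and CCNG1, 2 of the 6, had an unadjusted p under 0.05 in limma. CDKN1A encodes p21, the inhibitor of cyclin-dependent kinases through which p53 arrests the cycle (chromosome 6, 36676460 to 36687339, plus strand, GRCh38). Its normalised count was 445 and 420.3 in the WT libraries, 729 and 756 in the GFP libraries and 905 and 880.1 in the RBMXL3 libraries. The 3 groups did not overlap and stood in steps from WT to RBMXL3. The log2 change was 1.01 (SE 0.106, adjusted p 7.18e-05) against WT and 0.75 (SE 0.106, adjusted p 0.011) for GFP against WT. Against GFP it was 0.26 (SE 0.106, adjusted p 0.104), with a 95% interval of 0.03 to 0.49, so most of the distance between RBMXL3 and WT was already present between GFP and WT, and the remaining step missed the threshold. PLK3, a stress-responsive kinase (chromosome 1, 44800225 to 44805990, plus strand), had 268 and 292 in the WT libraries, 432 and 360.2 in the GFP libraries and 426 and 394 in the RBMXL3 libraries. Every transduced library lay above both WT libraries, and the GFP and RBMXL3 libraries overlapped. The change against WT was 0.51 (SE 0.13, adjusted p 0.0114), and those against GFP and between the controls were 0.05 (adjusted p 0.812) and 0.46 (adjusted p 0.0692). GADD45A, a partner of stress kinases, BTG2, an antiproliferative adaptor of mRNA decay, CCNG1, a cyclin that feeds back on p53 through MDM2, and PLK2, a relative of PLK3, were called in no comparison, with log2 changes of -0.28 to 0.27. By read count CCNG1 stood highest in the RBMXL3 libraries, at 4547 and 5101 (WT), 4064 and 5194 (GFP) and 5671 and 5441 (RBMXL3), with a change of 0.27 (adjusted p 0.124) against GFP. Its summed TPM went the other way, at 193 and 219 (WT), 217.2 and 216.8 (GFP) and 186 and 178 (RBMXL3). There both RBMXL3 libraries lay below every control library. Leaving out WT replicate 1 ended the PLK3 call against WT at 0.46 (adjusted p 0.0987), as did leaving out RBMXL3 replicate 1 at 0.46 (adjusted p 0.121) or 2 at 0.57 (adjusted p 0.0629). The CDKN1A call between the controls was lost without WT replicate 1 at 0.79 (adjusted p 0.0988) or 2 at 0.71 (adjusted p 0.0831).

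Neither gene of the feedback on p53 was called in any comparison by limma, edgeR or DESeq2, and 0 of these 2 had an unadjusted limma p under 0.05 in any of them. MDM2, the ubiquitin ligase that degrades p53 (chromosome 12, 68808176 to 68850686, plus strand), had 6856 and 6484 in the WT libraries, 5674 and 6391 in the GFP libraries and 6923 and 6684 in the RBMXL3 libraries. The RBMXL3 libraries lay between and just above the WT libraries, and both GFP libraries lay below both WT libraries. The log2 change was 0.18 (SE 0.0995, adjusted p 0.232) against GFP, with a 95% interval of -0.04 to 0.39, and 0.03 (SE 0.0995, adjusted p 0.851) against WT, with an interval of -0.19 to 0.24. The upper bound against WT, 0.24, lies under the change of CDKN1A against WT, 1.01. The change of CDKN1A against GFP, given above, lies inside the MDM2 interval against GFP. PPM1D, which encodes the phosphatase WIP1 that removes activating marks from p53 and its kinases, ranged from 809.6 to 903 over the 6 libraries, with log2 changes of 0.01 to 0.06.

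In the group listed as mitochondrial apoptosis, BBC3, PMAIP1 and PHLDA3 were higher with RBMXL3 than in both controls. The group also holds genes described here by other roles, such as PHLDA3 and CYFIP2. Of the 8 measured genes of this group, 3 were called higher and 1 lower against GFP, beside 10.5% and 10.4% of all genes. Against WT, 4 of the 8 were called higher and 1 lower, beside 14.6% and 15.3% of all genes. None was called between the controls by limma, edgeR or DESeq2, although 3 (BAX, AEN and TRIAP1) had an unadjusted limma p under 0.05. BBC3 encodes PUMA, a BH3-only protein that frees BAX and BAK to open the mitochondrial membrane (chromosome 19, 47220822 to 47232766, minus strand). Its normalised count was 304 and 312 in the WT libraries, 363 and 374 in the GFP libraries and 659 and 711 in the RBMXL3 libraries. The GFP libraries stood a little above the WT libraries, and both RBMXL3 libraries stood far above all 4. The log2 change was 0.85 (SE 0.115, adjusted p 0.000698) against GFP, 1.81-fold, and 1.09 (SE 0.115, adjusted p 6.94e-05) against WT, 2.14-fold. Both calls held without any single library. PMAIP1 encodes NOXA, a BH3-only protein that neutralises MCL1 (chromosome 18, 59899948 to 59904306, plus strand). Its count was 1082 and 992 in the WT libraries, 894 and 1591 in the GFP libraries and 2630.3 and 2711 in the RBMXL3 libraries. The RBMXL3 libraries lay above all controls, and the GFP libraries differed from each other by more than the WT libraries did. The change was 1.15 (SE 0.188, adjusted p 0.00191) against GFP, 2.21-fold, and 1.35 (SE 0.188, adjusted p 0.000413) against WT, 2.54-fold. Against GFP it was 0.74 (adjusted p 0.000468) without GFP replicate 1 and 1.55 (adjusted p 3.22e-06) without GFP replicate 2, called in both cases. PHLDA3, a protein that holds back AKT by binding its membrane lipid (chromosome 1, 201464383 to 201469237, minus strand), had 9983 and 9905 in the WT libraries, 11006 and 10989.9 in the GFP libraries and 14135 and 14935 in the RBMXL3 libraries. Its libraries also stood in steps without overlap. PHLDA3 rose by 0.40 (SE 0.097, adjusted p 0.0131) against GFP and 0.55 (SE 0.097, adjusted p 0.00162) against WT. The call against GFP was lost without RBMXL3 replicate 1 at 0.44 (adjusted p 0.121) or 2 at 0.36 (adjusted p 0.219), and that against WT without RBMXL3 replicate 2 at 0.51 (adjusted p 0.0565).

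**Figure D3:**
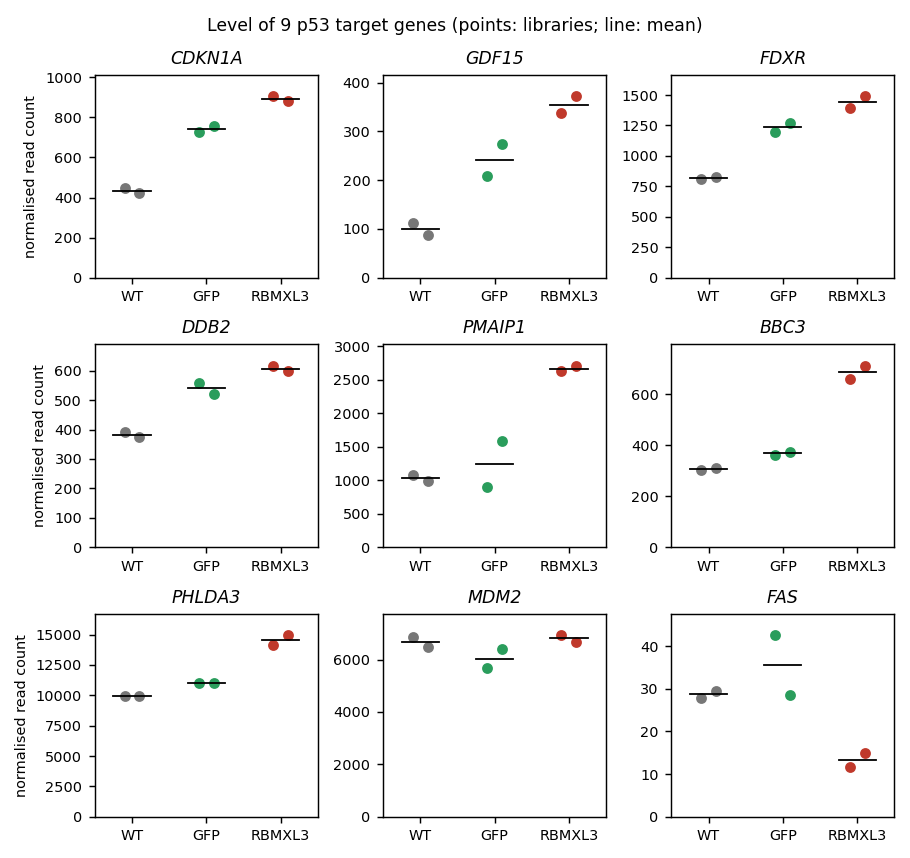
Normalised read counts by group for 9 p53 targets, with a point per library and a line at the mean of 2 libraries, each panel with its own axis from 0. The mean BBC3 count is 685 ± 36.7 (SD, n = 2) with RBMXL3, above the 369 ± 7.66 of GFP and the 308 ± 5.75 of WT, while the FAS points with RBMXL3 lie under all others.

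BAX, the pore-forming protein of the mitochondrial pathway (chromosome 19, 48954815 to 48961798, plus strand), had 1886 and 2227 in the WT libraries, 2449.7 and 2543 in the GFP libraries and 2677 and 2638 in the RBMXL3 libraries. Every GFP library lay above both WT libraries and every RBMXL3 library above both GFP libraries, but by read count the last step was small. The change was 0.37 (SE 0.103, adjusted p 0.0175) against WT and 0.09 (adjusted p 0.574) against GFP. In summed TPM, at 176 and 198 (WT), 199 and 209 (GFP) and 248 and 268 (RBMXL3), the last step was the larger. The WT call was lost without WT replicate 1 at 0.25 (adjusted p 0.174), without RBMXL3 replicate 1 at 0.36 (adjusted p 0.151) and without RBMXL3 replicate 2 at 0.38 (adjusted p 0.139). TRIAP1, a small protein that restrains cytochrome c release and so favours survival (chromosome 12, 120443961 to 120446412, minus strand), had 1299 and 1388 in the WT libraries, 1488 and 1879.5 in the GFP libraries and 1336 and 1218 in the RBMXL3 libraries. The RBMXL3 libraries lay below both GFP libraries and overlapped the WT libraries. On summed TPM the GFP libraries, at 77.8 and 91.7, and the RBMXL3 libraries, at 84.3 and 79.6, overlapped. TRIAP1 was not called there, at -0.04 (limma, adjusted p 0.828) against GFP. By read count it was lower against GFP, with a log2 change of -0.38 (SE 0.119, adjusted p 0.0379), and the change against WT was -0.07 (adjusted p 0.676). This call was lost without WT replicate 1 at -0.38 (adjusted p 0.0678), WT replicate 2 at -0.38 (adjusted p 0.068), GFP replicate 2 at -0.22 (adjusted p 0.103), RBMXL3 replicate 1 at -0.45 (adjusted p 0.126) and RBMXL3 replicate 2 at -0.32 (adjusted p 0.301). CYFIP2, an actin regulator that p53 activates (chromosome 5, 157266079 to 157395595, plus strand), had 5455 and 5397 in the WT libraries, 6255 and 4419 in the GFP libraries and 4214 and 4107 in the RBMXL3 libraries. Both RBMXL3 libraries lay below all 4 controls, although GFP replicate 2 came close. CYFIP2 was lower against WT, with a change of -0.38 (SE 0.134, adjusted p 0.0481) next to the threshold, and had -0.34 (adjusted p 0.0938) against GFP. Leaving out either WT library or either RBMXL3 library ended the WT call, at -0.37 (adjusted p 0.208) without WT replicate 1, -0.39 (adjusted p 0.162) without WT replicate 2, -0.40 (adjusted p 0.163) without RBMXL3 replicate 1 and -0.36 (adjusted p 0.218) without RBMXL3 replicate 2, and edgeR gave -0.37 (adjusted p 0.0622). AEN, a nuclease that digests DNA in apoptosis, and TP53INP1, a nuclear cofactor of stress responses, were not called. AEN had 5282 and 5249 (WT), 6260.5 and 6058 (GFP) and 6132 and 6221 (RBMXL3), lower in WT than in every transduced library, and TP53INP1 was highest in RBMXL3, at 1159.9 and 1154 (WT), 992 and 1225 (GFP) and 1452 and 1335 (RBMXL3), with a change of 0.33 (adjusted p 0.0584) against GFP.

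Among the death receptors, both TRAIL receptors were called higher with RBMXL3 than in WT cells, where FAS was not called. Against GFP, TNFRSF10C was called higher and the FAS read count lower, and TNFRSF10B was not called. With DESeq2 neither of these calls against GFP held. None of the 4 was called between the controls by limma, edgeR or DESeq2, although both TRAIL receptors had an unadjusted limma p under 0.05 there. TNFRSF10C, a decoy receptor that binds TRAIL without passing on the death signal (on chromosome 8), had 221 and 196 in the WT libraries, 262 and 256 in the GFP libraries and 358 and 343 in the RBMXL3 libraries. Its libraries stood in steps without overlap, and it rose by 0.40 (SE 0.127, adjusted p 0.0406) against GFP and 0.69 (SE 0.127, adjusted p 0.00204) against WT. Of its exon length 39.3% lies under other genes on the same strand, so how its reads were assigned is uncertain. The call against GFP was lost without WT replicate 1 at 0.40 (adjusted p 0.0527), WT replicate 2 at 0.40 (adjusted p 0.0521), GFP replicate 2 at 0.39 (adjusted p 0.0545), RBMXL3 replicate 1 at 0.37 (adjusted p 0.267) and RBMXL3 replicate 2 at 0.43 (adjusted p 0.212), and also with DESeq2 at 0.44 (adjusted p 0.0745). TNFRSF10B encodes DR5, the TRAIL receptor that does signal death (also on chromosome 8), and it had 1201 and 1323 in the WT libraries, 1661 and 1569 in the GFP libraries and 2070.3 and 1829.6 in the RBMXL3 libraries. Its libraries likewise stood in steps, and the change was 0.62 (SE 0.105, adjusted p 0.00124) against WT, 1.53-fold, and 0.27 (adjusted p 0.0886) against GFP. FAS, the receptor of FAS ligand (chromosome 10, 88990582 to 89015785, plus strand), had 27.9 and 29.4 in the WT libraries, 42.5 and 28.6 in the GFP libraries and 11.6 and 15.0 in the RBMXL3 libraries, from 9 and 14 reads in the RBMXL3 libraries. Both RBMXL3 libraries lay below all 4 controls. The log2 change was -0.67 (SE 0.184, adjusted p 0.0229) against GFP and -0.50 (SE 0.184, adjusted p 0.0561) against WT, so only the first was called. At a level this low the scale used understates the change, and the call was lost without GFP replicate 1 at -0.50 (adjusted p 0.103), without RBMXL3 replicate 1 at -0.60 (adjusted p 0.161) and without RBMXL3 replicate 2 at -0.73 (adjusted p 0.0983), and with DESeq2 at -1.41 (adjusted p 0.0592). The transcript table does not show FAS lower than in GFP cells: its summed TPM was 0.576 and 0.802 in the WT libraries, listed at 0 in both GFP libraries and in RBMXL3 replicate 1, and 0.565 in RBMXL3 replicate 2. ACTA2 runs opposite to FAS over 8.9% of its exon length, at a mean normalised count of 25.8, and the strand setting of the counting is not given in the sources used here. EDA2R, the receptor of ectodysplasin A2, was called in no comparison, with log2 changes of -0.03 to 0.12.

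Of the genes of DNA repair and nucleotide supply, DDB2 was higher in both transduced groups than in WT, and RRM2B was higher with RBMXL3 than with GFP. DDB2 recognises ultraviolet damage in chromatin (chromosome 11, 47214465 to 47239240, plus strand), and its window holds the element printed above without a mismatch. Its normalised count was 390.3 and 376 in the WT libraries, 560.0 and 521 in the GFP libraries and 617 and 598 in the RBMXL3 libraries. The groups stood in steps without overlap, and as for CDKN1A the larger step by read count was between WT and GFP. The change was 0.63 (SE 0.112, adjusted p 0.0016) against WT and 0.47 (SE 0.112, adjusted p 0.0418) between the controls, and 0.16 (adjusted p 0.331) against GFP. In summed TPM, at 17.1 and 16.0 (WT), 18.6 and 19.5 (GFP) and 29.3 and 26.3 (RBMXL3), the larger step was between GFP and RBMXL3. The call between the controls was lost without WT replicate 1 at 0.50 (adjusted p 0.228), WT replicate 2 at 0.45 (adjusted p 0.158), RBMXL3 replicate 1 at 0.47 (adjusted p 0.109) and RBMXL3 replicate 2 at 0.47 (adjusted p 0.109). RRM2B, a ribonucleotide reductase subunit that supplies nucleotides outside S phase (on chromosome 8), had 1481 and 1409 in the WT libraries, 972 and 1516 in the GFP libraries and 1996 and 1933 in the RBMXL3 libraries. The RBMXL3 libraries lay above all controls, while the GFP libraries lay on either side of the WT libraries, with GFP replicate 1 the lowest of the 6. The change was 0.68 (SE 0.157, adjusted p 0.0102) against GFP and 0.44 (SE 0.157, adjusted p 0.0514) against WT, so the second was not called by limma, while edgeR and DESeq2 called it at 0.46 (adjusted p 0.0481) and 0.46 (adjusted p 0.0323). Against GFP it was 0.37 (adjusted p 0.00994) without GFP replicate 1, the library with the low mitochondrial share, 1.00 (adjusted p 3.44e-05) without GFP replicate 2 and 0.66 (adjusted p 0.057) without RBMXL3 replicate 1, where the call was lost. XPC, the sensor of helix distortion in nucleotide excision repair, and POLH, the polymerase that copies past ultraviolet lesions, were called in no comparison. Their log2 changes lay in -0.14 to 0.23.

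In the redox and metabolic group, FDXR and GDF15 were higher in both transduced groups than in WT, and SESN1 was lower with RBMXL3 than with GFP. GDF15, a secreted stress cytokine (chromosome 19, 18374731 to 18389176, plus strand), had the largest change of the 33 against WT. Its count was 113 and 87.3 in the WT libraries, 208 and 273 in the GFP libraries and 337 and 372 in the RBMXL3 libraries. The groups did not overlap and stood in steps. The change was 1.62 (SE 0.16, adjusted p 4.89e-05) against WT, 3.07-fold, 1.09 (SE 0.16, adjusted p 0.011) between the controls, and 0.53 (SE 0.16, adjusted p 0.0353) against GFP. Here too the WT to GFP step was the larger, and the GFP call was lost without GFP replicate 1 at 0.35 (adjusted p 0.144), RBMXL3 replicate 1 at 0.59 (adjusted p 0.114) or RBMXL3 replicate 2 at 0.46 (adjusted p 0.237), and the call between the controls without WT replicate 1 at 1.24 (adjusted p 0.0917) or 2 at 0.94 (adjusted p 0.0862). FDXR, a mitochondrial reductase that feeds electrons to iron-sulphur cluster and steroid synthesis (chromosome 17, 74862497 to 74873031, minus strand), had 809 and 828 in the WT libraries, 1198 and 1273 in the GFP libraries and 1390.5 and 1489.6 in the RBMXL3 libraries. Its libraries stood in steps, and it rose by 0.80 (SE 0.1, adjusted p 0.000216) against WT and 0.58 (SE 0.1, adjusted p 0.0154) between the controls, and its change against GFP was 0.22 (adjusted p 0.144). The call between the controls was lost without WT replicate 1 at 0.56 (adjusted p 0.161) or 2 at 0.60 (adjusted p 0.0863). SESN1, a stress protein that restrains mTORC1 (chromosome 6, 108986437 to 109094819, minus strand), had 1593 and 1621 in the WT libraries, 1743 and 1919 in the GFP libraries and 1406 and 1435 in the RBMXL3 libraries. Both RBMXL3 libraries lay below all 4 controls, and the GFP libraries lay above WT. It was lower against GFP, with a change of -0.36 (SE 0.0974, adjusted p 0.0218), and not called against WT, at -0.17 (adjusted p 0.192), and the GFP call was lost without RBMXL3 replicate 1 at -0.34 (adjusted p 0.21) or 2 at -0.37 (adjusted p 0.187). TIGAR, which lowers glycolytic flux, and TP53I3, a quinone oxidoreductase, were not called, with log2 changes of -0.09 to 0.32.

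Of the remaining genes, ZMAT3 was higher with RBMXL3 than with GFP, and TP53I11 was higher in both transduced groups than in WT. ZMAT3, an RNA-binding zinc finger protein that acts on splicing and mRNA stability (chromosome 3, 179017223 to 179072279, minus strand), had 673 and 760.1 in the WT libraries, 555 and 574 in the GFP libraries and 769 and 773 in the RBMXL3 libraries. Both GFP libraries lay below both WT libraries, and both RBMXL3 libraries lay above all 4, the nearest WT library by a small margin. The change was 0.43 (SE 0.11, adjusted p 0.0161) against GFP, but 0.10 (adjusted p 0.498) against WT. The GFP call was lost without RBMXL3 replicate 1 at 0.44 or 2 at 0.43, and on summed TPM at 0.17 (limma, adjusted p 0.513). TP53I11, a membrane protein that p53 induces (chromosome 11, 44885903 to 44951306, minus strand), had 149 and 182 in the WT libraries, 322 and 245 in the GFP libraries and 314 and 319 in the RBMXL3 libraries. All transduced libraries lay above both WT libraries, and the GFP and RBMXL3 libraries overlapped. It was higher by 0.85 (SE 0.153, adjusted p 0.00174) against WT and 0.69 (SE 0.153, adjusted p 0.0345) between the controls, and the change against GFP was 0.16 (adjusted p 0.497). The call between the controls was lost without WT replicate 1 at 0.57 (adjusted p 0.27), WT replicate 2 at 0.82 (adjusted p 0.0986), GFP replicate 1 at 0.51 (adjusted p 0.0633), RBMXL3 replicate 1 at 0.69 (adjusted p 0.055) and RBMXL3 replicate 2 at 0.69 (adjusted p 0.0551). FBXO22, a ubiquitin ligase adaptor, and RPS27L, a ribosomal protein paralog that binds MDM2, were called in no comparison. RPS27L ranged widely between the GFP libraries, at 1307 and 1222 (WT), 1341 and 1957 (GFP) and 1446 and 1335 (RBMXL3).

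**Figure D4:**
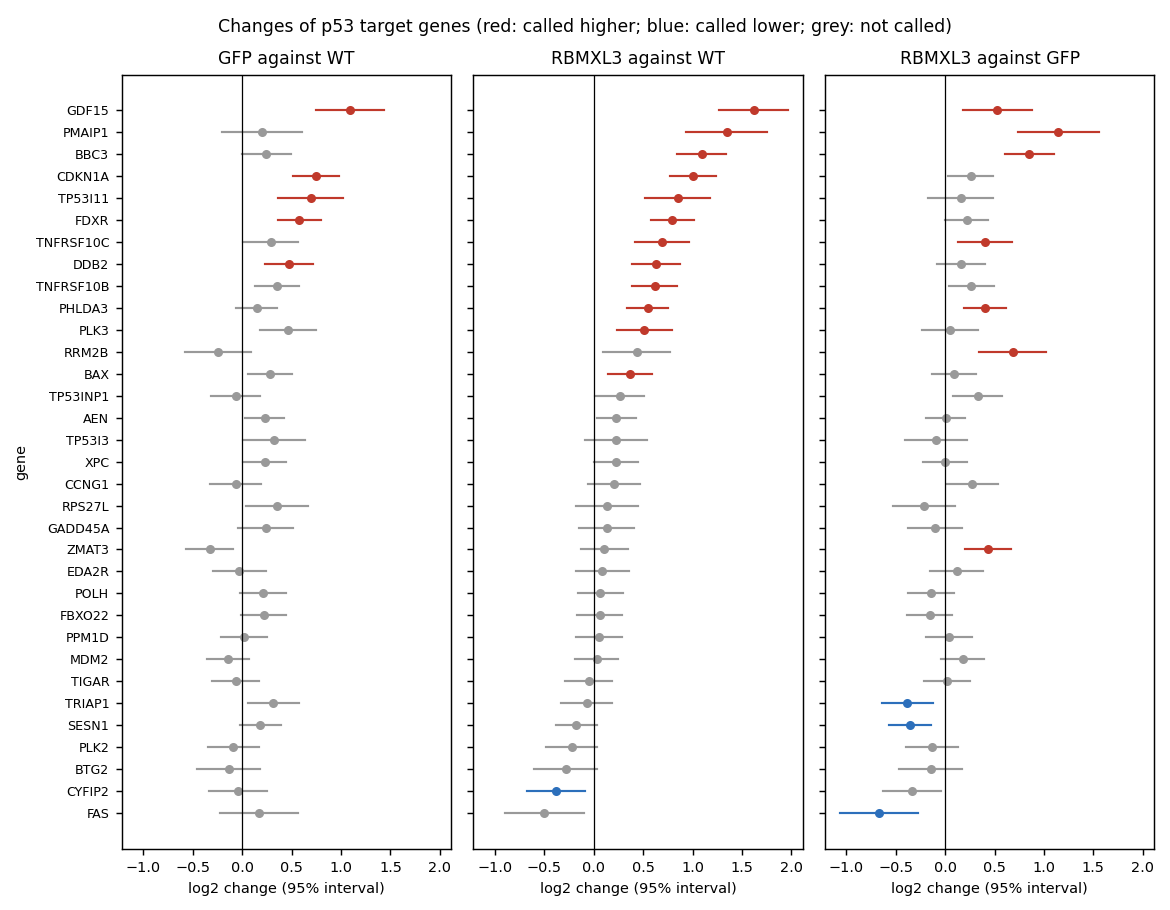
Log2 change of every measured p53 target in the 3 comparisons, with 95% intervals from limma, red for genes called higher, blue for lower and grey for not called. BBC3 and PMAIP1 lie farthest right against GFP, at 0.85 and 1.15, and the points of GFP against WT are largely to the right of 0.

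Per length, in TPM (a transcript's length-corrected share of all transcripts, summed here over the transcripts of a gene) in WT cells, PHLDA3 was the most abundant of the 33 at 513 ± 46.4 (SD, n = 2), followed by CCNG1 at 206 ± 18.2, BAX at 187 ± 15.6, RPS27L at 171 ± 2.40 and MDM2 at 141 ± 17.7. From CCNG1 to RPS27L the intervals of 1 SD of neighbours overlap, so their order is not set. PMAIP1 had 66.3 ± 4.50, BBC3 15.9 ± 1.05 and CDKN1A 12.8 ± 0.375. GDF15, with 6.75 ± 1.05, and TP53I11, with 3.72 ± 0.537, were among the least abundant, and FAS was lowest at 0.689 ± 0.159. High and low genes alike were thus among those called with RBMXL3.

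In a list of 26 genes of p53 regulation, 2 were called higher and 3 lower against GFP, 19.2% beside 20.9% of all genes, 2 higher and 4 lower against WT, 23.1% beside 29.9%, and 1 higher between the controls, 3.85% beside 3.67%. These shares are near those of all genes. The list had medians of -0.02, -0.13 and -0.08 on the log2 scale. MDM4, the MDM2 relative that silences p53, was called in no comparison. Against GFP, against WT and between the controls, in that order, its log2 changes were 0.17, -0.08 and -0.25 (adjusted p 0.399, 0.664 and 0.286). The regulators with the smallest adjusted p were COP1, a ubiquitin ligase for p53, with -0.53, -0.61 and -0.08 (adjusted p 0.00275, 0.000669 and 0.628) in the same order, and TP63, a p53 family member, with 0.50, 0.96 and 0.46 (adjusted p 0.0321, 0.000741 and 0.0999). USP7, the deubiquitinase of MDM2 and p53, had -0.27, -0.52 and -0.26 (adjusted p 0.0635, 0.00179 and 0.137), and RPL5, a ribosomal protein that can inhibit MDM2, had -0.55, -0.19 and 0.36 (adjusted p 0.00515, 0.211 and 0.0854).

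Of a further 36 direct p53 targets 33 were tested, and 5 were called higher and 2 lower against GFP, 21.2% beside 20.9% of all genes. Against WT 10 were called higher and 4 lower, 42.4% beside 29.9%, and between the controls 5 higher and 2 lower, 21.2% beside 3.67%. The medians were 0.04, 0.11 and 0.13. PLTP, a phospholipid transfer protein, had 0.44, 0.86 and 0.42 (adjusted p 0.0106, 0.000139 and 0.0418), and PIDD1, the scaffold that activates caspase 2, had 0.41, 0.86 and 0.45 (adjusted p 0.0144, 0.000144 and 0.0369). ASCC3, a helicase of repair and ribosome rescue, had -0.40, -0.84 and -0.44 (adjusted p 0.0152, 0.000155 and 0.0389). Of 18 cell cycle genes that p53 represses through p21 and the DREAM complex, 3 were called lower against GFP (16.7% beside 10.4% of all genes called lower), 4 against WT (22.2% beside 15.3%) and 1 between the controls (5.56% beside 1.91%), with medians of -0.11, -0.20 and -0.08. CCNB2, a mitotic cyclin, had -0.55, -0.60 and -0.05 (adjusted p 0.00356, 0.00137 and 0.815), and BUB1, a kinase of the spindle checkpoint, had -0.29, -0.46 and -0.17 (adjusted p 0.0505, 0.00389 and 0.301). KIF23, a cytokinesis motor, had -0.33, -0.44 and -0.12 (adjusted p 0.0289, 0.00462 and 0.489), and AURKA, a mitotic kinase, had -0.30, -0.37 and -0.08 (adjusted p 0.062, 0.0191 and 0.712).

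The list of 11 ATF4 and CHOP targets, genes of the integrated stress response, was included because some p53 targets here, PMAIP1, BBC3, TNFRSF10B and GDF15, can also be switched on by that pathway. Of these 11, 6 were called higher against GFP (54.5% beside 10.5% of all genes called higher), 8 against WT (72.7% beside 14.6%) and 3 between the controls (27.3% beside 1.76%), with medians of 0.36, 0.75 and 0.34. CHAC1, which degrades glutathione, had 0.54, 1.25 and 0.72 (adjusted p 0.0132, 6.43e-05 and 0.0164), and TRIB3, a pseudokinase, had 0.36, 0.75 and 0.39 (adjusted p 0.0237, 0.000299 and 0.0503). CEBPB, a transcription factor, had 0.66, 1.27 and 0.61 (adjusted p 0.00673, 9.44e-05 and 0.0383), and PSAT1, an enzyme of serine synthesis, had 0.50, 0.83 and 0.34 (adjusted p 0.00641, 0.000207 and 0.0861). The part of this pathway in the p53 target changes was not tested.

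The study also asked about splicing, and transcript usage could be tested for 22 p53 targets with at least 2 transcripts above the TPM minimum. The test asked whether 1 transcript of a gene changed differently from the others (diffSplice in limma, log2 of TPM plus 1, a Simes p per gene adjusted over 8882 genes). It called 2 of the 22 against GFP, CCNG1 and MDM2, beside 12% of all genes, and 3 against WT, those and PMAIP1, beside 12%. Between the controls it called none, beside 1.72%, with 3 of the 22 at an unadjusted Simes p under 0.05. A second test, on each transcript's share of its gene's TPM, called none of the 22 in any comparison, beside 0.554% of genes against GFP, 1.1% against WT and 0.158% between the controls, so the usage calls hold on the log scale only. At an unadjusted p under 0.05 the second test had 5, 5 and 1 of the 22 in the same order. Leaving out RBMXL3 replicate 1 or 2 left 1 call against GFP, and leaving out GFP replicate 2 gave 5. Against WT there was 1 call without WT replicate 1, RBMXL3 replicate 1 or RBMXL3 replicate 2, and 4 without GFP replicate 1 or without GFP replicate 2. CCNG1 had the clearest change, with an adjusted p of 1.67e-09 against GFP and 1.03e-08 against WT. CCNG1-210 (chromosome 5, 163437766 to 163444078, plus strand), annotated as a processed transcript without a coding sequence, had TPM values of 32.6 and 50.6 in the WT libraries, 64.4 and 54.7 in the GFP libraries and 0 and 0 in the RBMXL3 libraries, so it is listed at 0 in both RBMXL3 libraries. The coding transcript CCNG1-201 had TPM values of 131 and 137 in the WT libraries, 111 and 123 in the GFP libraries and 159 and 160.5 in the RBMXL3 libraries. It made up 87.6% of CCNG1 TPM with RBMXL3 on average, beside 65.0% in WT and 54.0% in GFP, and no RBMXL3 library overlapped a control in either transcript. With an adjusted p of 0.119 against GFP and 0.221 against WT the test on shares did not call CCNG1, and a listed 0 can be a failed estimate of the quantifier. MDM2 had an adjusted usage p of 0.0402 against GFP and 0.0311 against WT, and 0.657 and 0.749 in the test on shares. The coding transcript MDM2-206 had TPM values of 20.8 and 19.7 in the WT libraries, 30.3 and 3.62 in the GFP libraries and 0 and 0 in the RBMXL3 libraries, and the processed transcript MDM2-227 had TPM values of 0 and 50.3 in the WT libraries, 0 and 15.4 in the GFP libraries and 46.3 and 46.3 in the RBMXL3 libraries. MDM2-206 and MDM2-227 both varied widely within the controls and were each listed at 0 in 2 libraries, so neither order is secure. Transcripts from the first MDM2 promoter summed to 57.2 and 57.4 TPM in the WT libraries, 45.3 and 58.4 in the GFP libraries and 63.9 and 65.4 in the RBMXL3 libraries. Those from the second promoter, whose window with the p53 element is printed above, summed to 67.7 and 45.6, 58.9 and 24.7, and 23.8 and 16.3 in the same order. Transcripts that start farther downstream, mostly MDM2-227, summed to 3.42 and 50.3, 0.207 and 15.6, and 47.5 and 47.7. The RBMXL3 libraries were highest in the first class. They were lowest in the second class only with MDM2-206 counted, since without it the second class summed to 46.9 and 25.8, 28.6 and 21.05, and 23.8 and 16.3, and GFP replicate 2 lay below RBMXL3 replicate 1. The classes were made after the values were seen and are given without a test. PMAIP1 was called against WT alone, with an adjusted usage p of 0.0466 (0.144 against GFP), and PMAIP1-202 carried nearly all of its TPM in every library, at 67.9 and 62.1 in the WT libraries, 60.4 and 90.8 in the GFP libraries and 123 and 127 in the RBMXL3 libraries. The other coding transcript, PMAIP1-201, had TPM values of 1.60 and 0.776 in the WT libraries, 0.420 and 1.05 in the GFP libraries and 0 and 0.481 in the RBMXL3 libraries, so this call rests on a transcript near the floor.

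**Figure D5:**
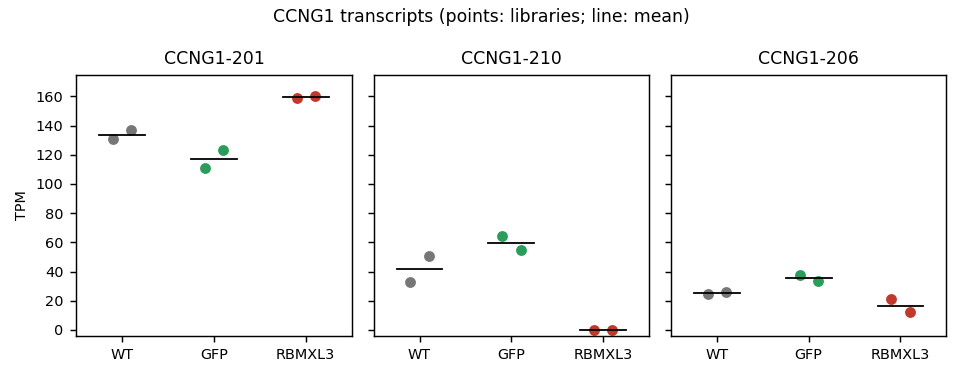
TPM of the CCNG1 transcripts 201, 210 and 206 by group, with a point per library and a line at the mean of 2 libraries. CCNG1-210 lies between 32.6 and 64.4 in the 4 control libraries and is listed at 0 in both RBMXL3 libraries.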

How the data were processed

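RNA-seq of 6 TCam-2 libraries, 2 each of WT, GFP and RBMXL3, was analysed from 2 tables. Groups and replicate numbers came from the sample titles. Per the submitters' processing notes, reads were trimmed with Trim Galore 0.6.10, aligned with STAR 2.7.11a to GRCh38 (hg38), normalised with DESeq2 and quantified with Salmon 1.10.2, from libraries of a stranded mRNA kit. The counting program, its strand setting and the annotation release are not given in the sources used here.

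The gene table as deposited by the authors holds a normalised signal per gene, which in the values is a read count divided by 1 size factor per library. All 145320 values above 0 were whole multiples of 1 read per library (100%, tolerance 1e-06), so whole reads were recovered. The normalised read counts printed are the deposited values. The transcript table holds TPM, estimated with Salmon per the submitters' processing notes, for 251955 transcripts, and these were summed per gene. Of them 80.0% were found in GENCODE 29, carrying 94.7% to 95.1% of the TPM. Gene coordinates come from that release.

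Changes were fitted with limma 3.58.1 (R 4.3.3) over all 6 libraries on log2 of the rescaled value plus a pseudocount of 1, for the 14292 genes that reached a rescaled value of 1 in 2 or more libraries. The rescaled value is the normalised count divided by 23.9, a common factor set by the mean library total, so the pseudocount equals 23.9 normalised counts. The fit used trend and moderation of the variances, with Benjamini-Hochberg adjustment over those genes and a threshold of 0.05. A pseudocount understates the change of low genes. Alternatives were other pseudocounts and filters, quantile normalisation, edgeR 4.0.16 and DESeq2 1.42.0 on the recovered reads, summed TPM, a replicate block and leaving out each library. edgeR called 10, 13 and 5 p53 targets, beside 19.9%, 29.1% and 3.32% of all genes (RBMXL3 against GFP, against WT, and between the controls). DESeq2 called 8, 14 and 5 in the same order, beside 17.5%, 25.1% and 4.86%. The scripts were tested on simulated data. No dates or batches are in the labels.

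The p53 targets, the other gene lists and the markers were chosen with earlier results of these data known. Named in full are p53 targets called in any comparison, CDKN1A and MDM2. From the further lists MDM4 and up to 4 genes a list, those with the smallest adjusted p against GFP or WT, are named, and some genes the rule names are not reported here. Transcripts are named for genes with a usage call. AEN, TP53INP1, CCNG1 and RPS27L were given every library's value after their values were seen. Promoter windows come from RefSeq (GRCh38.p14).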

Additional observations from a re-analysis of the deposited data

How the results depend on the processing

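With 2 libraries a group, 1 library can decide a call. Leaving out each library in turn gave 2 to 12 calls among the p53 targets against GFP, 9 to 19 against WT, 0 to 11 between the controls and 2 to 9 against both controls. It gave medians of 0.054 to 0.11, 0.18 to 0.23 and 0.15 to 0.25 in the 3 comparisons, and 1 to 5, 1 to 4 and 0 to 1 genes with a transcript usage call. A group left with 1 library is assumed to vary like the other groups. Against WT the most p53 targets were called without either GFP library, where the share of all genes called was also highest. The fewest were called without RBMXL3 replicate 2, where that share was lowest. The ranges of counts therefore do not describe the p53 targets alone. For the transcript usage counts with a library left out, no share of all genes is given. With no filter on low values, over 30989 genes, the calls were 1 against GFP (beside 3.07% of all genes) and 10 against WT (beside 7.51%). There were 0 between the controls, where no gene of any kind was called, and 1 against both. Quantile normalisation gave a median of 0.28 against WT. Summed TPM gave 6 calls against GFP (beside 6.93%), 15 against WT (beside 11.5%) and 0 between the controls. Its medians were 0.30, 0.28 and 0.13, on a scale that moved the median of all genes against GFP by 0.13. On that scale TIGAR reversed against GFP, at -0.70, and the cause was not tested. Other p53 targets, CCNG1 and PLK2 among them, also changed direction against GFP but were called on neither scale. The test on transcript shares called 0 against GFP and 0 against WT.

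The samples were not paired by replicate number in the main fit. Over 14292 genes the differences between replicates 1 and 2 correlated at -0.16 (WT and GFP), 0.03 (WT and RBMXL3) and -0.09 (GFP and RBMXL3). These values show no strong shared shift, but they cannot settle whether libraries of the same number were prepared together. A replicate block gave 7 calls against GFP, 13 against WT and 3 between the controls, beside 16.7%, 25.9% and 1.34% of all genes. It gave 3 against both controls. Crossing the numbers, added after seeing the data, gave 12, 16 and 6, beside 25.1%, 34.0% and 7.34%, and 8 against both. For calls against both in these settings, the share of all genes was not computed.

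Among single genes, 1329 of 1464 alternative values kept their direction and side of the threshold or were called in neither setting, 93 lost a call, 41 gained 1 and 1 reversed. A change of direction counted as reversed only where the gene was called in at least 1 of the settings compared. BBC3 in both RBMXL3 comparisons, and against WT CDKN1A, PMAIP1, TNFRSF10B, TNFRSF10C, DDB2, FDXR, GDF15 and TP53I11, kept their calls in all 14 alternatives. FAS, at 9 to 14 reads in the RBMXL3 libraries, is limited by depth.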

Other observations

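TIGAR gave different values in the 2 tables, and it was not the only p53 target to do so. Its normalised read count was level, at 802 and 748 in the WT libraries, 718 and 759 in the GFP libraries and 712 and 782 in the RBMXL3 libraries. Its summed TPM was 41.4 and 46.4, 45.8 and 39.2, and 22.3 and 29.5 in the same order, so both RBMXL3 libraries lay below all 4 controls, with a log2 change of -0.70 against GFP (limma, adjusted p 0.0473). TIGAR-202 held most of the TPM, at 30.7 and 36.8, 34.5 and 30.0, and 13.6 and 19.7. Of the exon length of TIGAR, 42.6% lies under another gene on the same strand. TIGAR was singled out after its values were seen, and no explanation was tested.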
